A study of Mus musculus with 1536 samples.

Results

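Axon guidance ligands and receptors were examined in single serotonin neurons of the adult mouse raphe. The members are the semaphorins, plexins, neuropilins, ephrins, Eph receptors, Slits, Robos, netrins, netrin-Gs, Dcc and the Unc5 receptors. They were picked out by their gene symbols, and the set was chosen with earlier results of these data known. They came to 71 of the 53263 genes in the deposited table, 37 ligands and 34 receptors, and 68 of them had a read in at least 3 cells. The cells were tdTomato-positive neurons of C57BL/6J mice 40 to 45 days old that carried Sert-Cre and the reporter Ai14, so a cell was labelled if it had ever made Cre from the serotonin transporter gene. One group of 290 cells on 5 plates came from a dissection of the principal dorsal raphe (pDR), and the other of 709 cells on 11 plates from a dissection labelled as the whole dorsal raphe (DR), which the study describes as also holding the caudal DR and the median raphe (MR) and is called mixed below. The labels name no treatment, and no plate held cells of both dissections.

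Each cell was 1 Smart-seq2 library, in which full-length polyadenylated RNA is copied and amplified, and the values are CPM, a gene's reads as parts per 1000000 of the cell's reads on genes. Cells had a median of 827283 reads on genes, 96834 to 2780443 in all, and the medians of the pDR and mixed dissections were 755926 and 869546. The labels name no animal, so each dissection counts as 1 sample and no p-value was computed. The spread is given over plates, and intervals on shares of cells are exact Clopper-Pearson 95% intervals that cover counting error only, while for a gene with 0 reads the limit given is 3 cells of the total. The identity of the cells was checked on 8 serotonin neuron markers, whose summed median level was 19342 CPM in the pDR and 20958 CPM in the mixed dissection. This sum does not show that each cell held every marker, and it differed between the kinds of cell compared below. Markers of glia, vessels and ependyma summed to over 100 CPM in 180 of the 999 cells, and 1 cell on plate 55 of the mixed dissection held 79745 CPM of them.

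In development these genes steer growing axons. Secreted Slits and netrins, secreted class 3 and membrane-bound class 4 to 7 semaphorins and the membrane-bound ephrins act on Robo, Dcc and Unc5, plexin and neuropilin, and Eph receptors on the growth cone, where they attract or repel it by changing its cytoskeleton. Many remain expressed in the adult brain, where they are known to act at synapses and in the upkeep of connections, and serotonin neurons are known for axons that branch over most of the forebrain. Netrin-Gs stay on the membrane and bind synaptic adhesion proteins instead of Dcc.

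A wide set of both ligands and receptors was detected in adult serotonin neurons. Of the 71 members, 30 had a read in 50% or more of the 999 cells, 11 of them in 80% or more, 22 had one in 10 to 50% and 19 in under 10%. Sema4d was found in the most cells, 949 or 95.0% (93.5 to 96.3%), and the other members past 80% were Epha10, Ephb6, Plxna2, Plxna3, Robo2, Sema4a, Sema4f, Sema6a, Sema6b and Sema6d. Ntn5 had 0 reads in 999 cells, which by that limit allows a share of up to 0.3003% of cells, Epha2 had a read in 1 cell and Plxnb3 in 2 cells. A cell held reads of a median of 28 members in either dissection, with plate medians of 24 to 30 in the pDR and 26 to 31 in the mixed dissection. With every cell thinned to 250000 reads the median was 25 in both.

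The families differed in how many of their genes were detected. Of the 7 class 3 semaphorins, most of which act through neuropilins, none reached 50% of cells, and Sema3a was found in 8 cells. Of the 13 other semaphorins 8 reached it, as did 6 of the 9 plexins, while Plxnb1 and Plxnd1 were found in 19.7% and 31.2% of cells. The Eph receptors split into 5 of 14 past 50%, Epha5, Epha6, Epha10, Ephb2 and Ephb6, and 5 under 10%, among them Epha4, a receptor for both ephrin classes, with a read in 7 cells. Of the 8 ephrins 3 passed 50%, Efna3, Efna5 and Efnb3. Slit1 and Slit2 and their receptors Robo1 and Robo2 passed it, whereas Robo3, which acts in commissural neurons, and Robo4, known from endothelium, were found in 16 and 6 cells. Dcc, Unc5a and Unc5d passed 50%, Unc5c was found in 49.3% of cells and Unc5b in 2.603%.

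**Figure D1:**
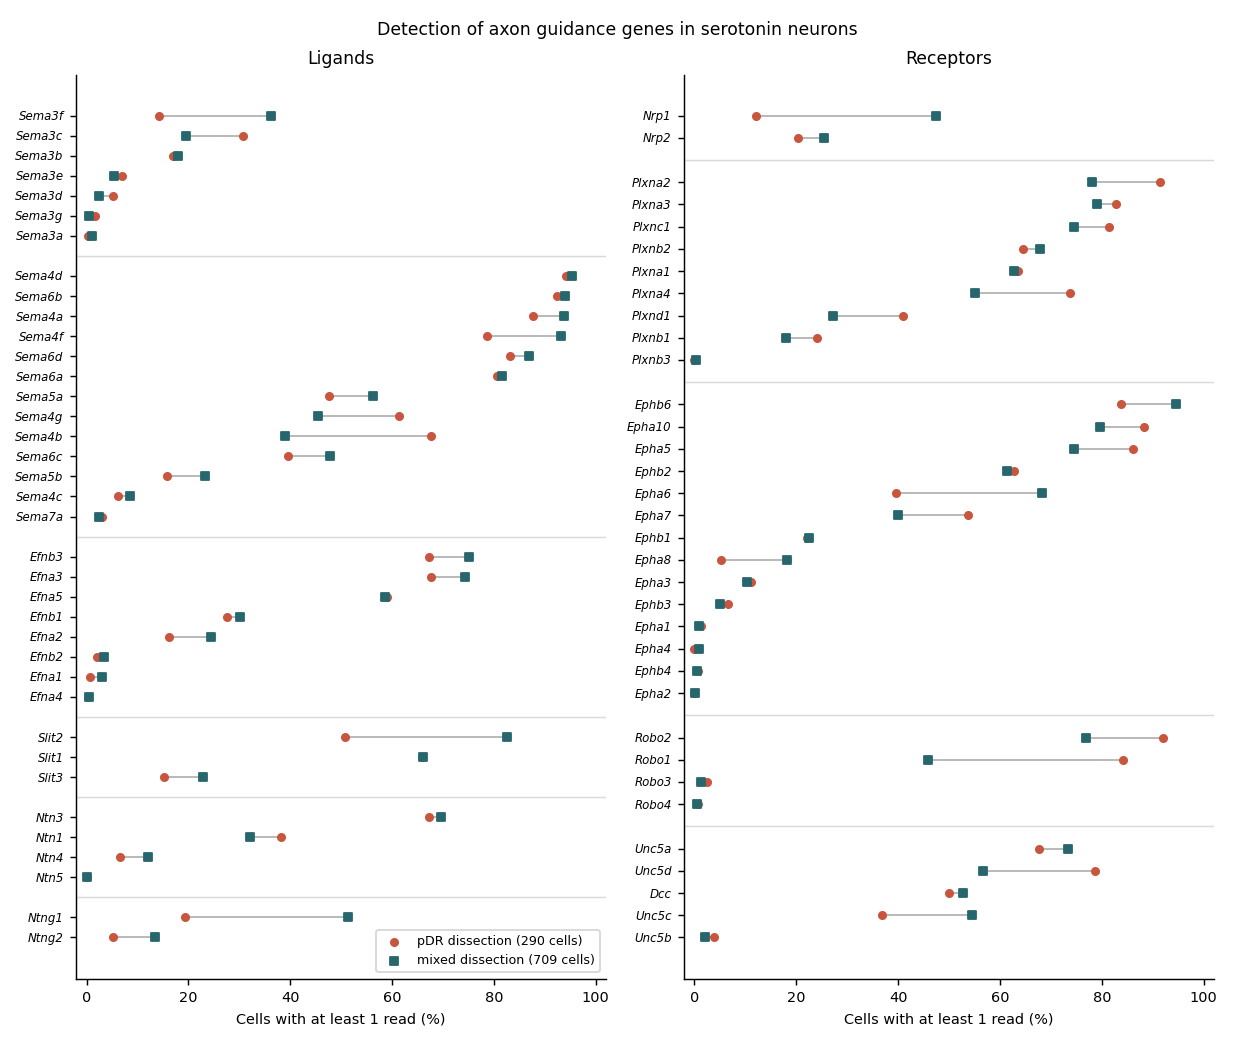
Share of cells with at least 1 read of each member, in percent, ligands on the left and receptors on the right, grouped by family. Circles are the 290 cells of the pDR dissection and squares the 709 cells of the mixed dissection. Nrp1, Ntng1, Slit2 and Epha6 lie further right in the mixed dissection, and Robo1, Sema4b and Unc5d further right in the pDR dissection.

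Levels of different genes were compared only as CPM per kilobase of exon, with the exons of all annotated transcripts of a gene merged. That length can exceed the length of 1 transcript, and it was 25433 bases for Slit2, which stood at 1.46 CPM per kb. The order of the members depends on this choice. The highest was Ephb6, an Eph receptor without kinase activity (chromosome 6, 41605482 to 41620509, GENCODE M21 on GRCm38), at 13.5 CPM per kb, from a mean level of 51.1 CPM over all cells. Plate means of Ephb6 ran from 21.7 to 37.7 CPM in the pDR and from 42.9 to 98.5 CPM with a median of 51.5 CPM in the mixed dissection, so the plates of the dissections did not overlap. The class 4 semaphorins Sema4a (8.67 CPM per kb), Sema4f (5.84 CPM per kb) and Sema4d (4.94 CPM per kb), membrane proteins that bind plexins, were among the next 4, with the ephrin Efna5 at 5.14 CPM per kb. Their plate means ran from 20.2 to 45.7 CPM in the pDR and from 43.2 to 62.7 CPM with a median of 50.9 CPM in the mixed dissection for Sema4a, from 11.8 to 27.2 CPM and from 32.2 to 41.1 CPM with a median of 33.8 CPM for Sema4f, and from 15.8 to 30.0 CPM and from 8.37 to 32.2 CPM with a median of 18.4 CPM for Efna5. Plates overlapped for Sema4a and Efna5 and not for Sema4f. The ephrin Efnb3 followed at 4.21 CPM per kb. Efna5 was found in 58.7% of cells against 89.0% or more for the 3 semaphorins, and its highest cell held 497 CPM.

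Among the members with a mean of at least 10 CPM, those with the widest spread between plates, as the SD of log2(plate mean + 1), were Nrp1 (1.47), Robo1 (1.14), Unc5d (1.01), Robo2 (0.67), Epha7 (0.58) and Plxna4 (0.58). For Nrp1, Robo1 and Unc5d the spread followed the dissection, as given next. Robo2 had plate means of 39.8, 44.0, 41.8, 68.2 and 45.4 CPM on pDR plates 12, 13, 25, 39 and 40 and from 9.34 to 31.4 CPM with a median of 22.7 CPM on the mixed plates, which did not overlap. Epha7, a receptor for ephrin-A ligands, had pDR plate means of 10.1, 13.3, 14.2, 27.3 and 27.0 CPM and mixed plate means from 6.02 to 18.9 CPM with a median of 9.98 CPM, and Plxna4, a partner of neuropilins, had 18.0, 17.8, 17.9, 29.9 and 21.9 CPM and from 5.96 to 18.6 CPM with a median of 11.5 CPM. The plates of the dissections overlapped for both. For Plxna4 only mixed plate 48 reached into the pDR range, and the next highest mixed plate was at 13.2 CPM. A single cell of plate 48 held 754 CPM of Plxna4 together with 1906 CPM of glial, vascular and ependymal markers.

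Between the dissections, the mixed cells held more reads of the neuropilins, and the pDR cells more of the repulsion receptors Unc5d and Robo1. A member was called where the mean levels were at least 2-fold apart on the scale log2((mean CPM + 1)/(mean CPM + 1)), among members with a mean of at least 1 CPM over the cells compared. Of the 71 members 51 passed that filter, and 5 of them were called higher in the mixed dissection, Nrp1, Epha8, Nrp2, Ntng1 and Slit2, against 1.75% of the 12834 genes that passed. Another 3 were called lower, Unc5d, Robo1 and Sema3c, against 2.88% of all genes. Over the 51 members the median log2 ratio was -0.018, and over all genes -0.0076. These values compare means over the cells of all plates, and since each plate held only 1 dissection, plate and dissection cannot be told apart.

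Nrp1 (chromosome 8, 128358604 to 128503363), a co-receptor for class 3 semaphorins, had means of 3.18, 1.93, 1.86, 0.219 and 0.897 CPM on the 5 pDR plates and from 7.61 to 40.0 CPM with a median of 13.7 CPM on the 11 mixed plates. Every mixed plate lay above every pDR plate, and the log2 ratio was 2.44, with a read in 47.4% of mixed and 12.1% of pDR cells. Unc5d (chromosome 8, 28646717 to 29219636), a netrin receptor that also binds the adhesion protein Flrt2, had 50.4, 58.1, 45.5, 84.6 and 82.0 CPM on the pDR plates and from 7.06 to 30.2 CPM with a median of 17.1 CPM on the mixed plates. Here every mixed plate lay below every pDR plate, and the log2 ratio was -1.56. Robo1 had 16.2, 16.1, 22.0, 24.4 and 29.2 CPM on the pDR plates and from 0.819 to 12.5 CPM with a median of 7.38 CPM on the mixed plates, again without overlap, with a log2 ratio of -1.24 and a read in 84.1% of pDR and 45.8% of mixed cells. Epha8, an ephrin-A receptor with low levels throughout, had 0.234, 0.225, 0.872, 0.0811 and 0.240 CPM on the pDR plates and from 1.13 to 5.00 CPM with a median of 2.16 CPM on the mixed plates, without overlap and with a log2 ratio of 1.31.

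Plates overlapped for the other called members. The second neuropilin, Nrp2, had 3.50, 3.28, 2.44, 2.34 and 2.63 CPM on the pDR plates and from 3.10 to 16.5 CPM with a median of 7.66 CPM on the mixed plates (log2 ratio 1.21). Ntng1, which binds the synaptic adhesion protein Lrrc4c, had 5.63, 1.62, 3.45, 9.74 and 2.88 CPM and from 6.82 to 17.8 CPM with a median of 10.2 CPM (log2 ratio 1.21), and leaving out plate 13 took it to 0.94, under 2-fold. The secreted repellent Slit2 had 20.5, 14.7, 35.8, 24.7 and 18.6 CPM and from 34.5 to 54.8 CPM with a median of 44.7 CPM, and only pDR plate 25 reached into the range of the mixed plates (log2 ratio 1.00). The call of Slit2 was at the limit, with 0.93 with plates weighted equally, 0.99 after thinning to 250000 reads, and a value under 2-fold without plate 12, 13, 40, 48, 52, 55, 56 or 63, the lowest 0.84. The secreted semaphorin Sema3c had 15.4, 7.15, 11.6, 3.80 and 14.2 CPM and from 0.116 to 8.96 CPM with a median of 4.19 CPM (log2 ratio -1.11), and -0.85 without plate 12. Thus 2 members, Nrp1 and Epha8, were called higher with every mixed plate above every pDR plate, which held for 0.888% of all genes, and 2 members, Robo1 and Unc5d, were called lower with every mixed plate below, which held for 1.64%.

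**Figure D2:**
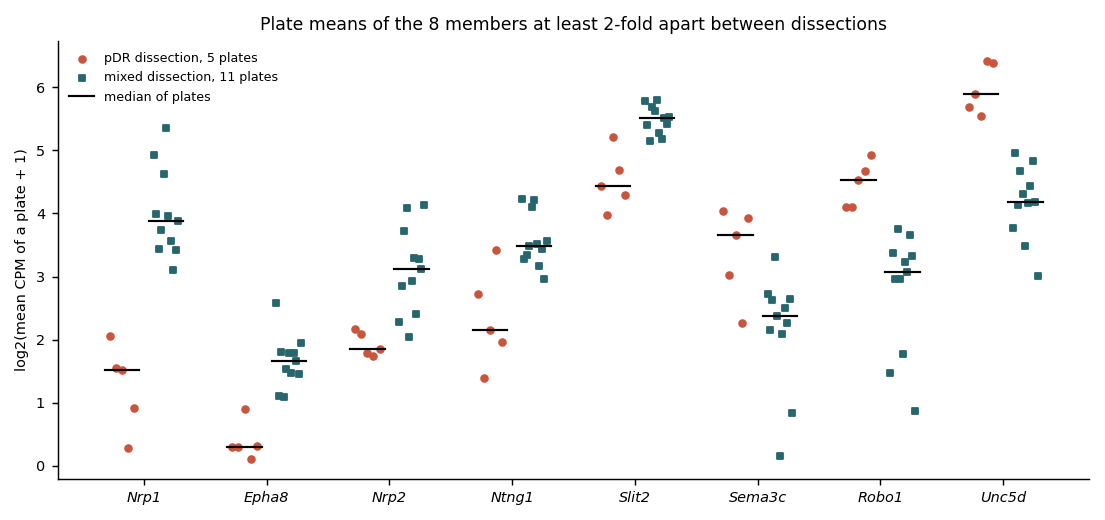
Plate means of the 8 members called between dissections, as log2(mean CPM of a plate + 1). Circles are the 5 pDR plates, squares the 11 mixed plates and black lines the median of the plates. The plates of the dissections do not overlap for Nrp1, Epha8, Robo1 and Unc5d.

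The mixed dissection held 147 cells with a read of Zeb2, a zinc finger transcription factor, and 154 with a read of Irx2, an Iroquois homeobox factor, where the pDR dissection held 3 and 10. In the 393 mixed cells with neither Zeb2 nor Irx2 and outside the top 10% for Grik1, the mean of Nrp1 was 4.95 CPM against 2.01 CPM in the pDR, that of Robo1 11.8 CPM against 19.7 CPM, and that of Unc5d 27.7 CPM against 59.7 CPM. Slit2 was at 38.8 CPM against 21.2 CPM, Ntng1 at 7.00 CPM against 4.14 CPM, and Nrp2 at 4.88 CPM against 3.04 CPM. Cells of the mixed dissection were next split by these genes, with both kinds of cell on each plate.

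Zeb2-positive cells held the most called members of the 3 kinds, 17. A cell was positive with at least 1 read, and the 147 positive cells were compared with the 562 other mixed cells on the same 11 plates. Positive cells were 44 of 76 on plate 48, 19 of 52 on plate 55 and 12 of 27 on plate 56. The other plates held 7 to 12 each. Plates 48, 55 and 56 also had the highest mixed plate means of Nrp1, 29.2, 23.7 and 40.0 CPM, and of Ephb6, 98.5, 76.9 and 73.6 CPM. Of the 71 members 52 passed the filter, and 13 of them were called lower in positive cells, against 5.66% of 12747 genes, and 4 were called higher, against 2.72%. Those lower were 8 receptors, Epha5, Epha7, Ephb1, Robo1, Robo2, Dcc, Nrp2 and Plxnb1, and 5 ligands, Sema5a, Ntn1, Sema3e, Slit3 and Efna5. Those higher were the receptors Nrp1 and Ephb6 and the ligands Sema6d and Ntng1. The median log2 ratio was -0.24 over the members and 0.043 over all genes. Of the 17 called members 10 had the same direction on all 11 plates, and 5.06% of all genes were called with the same direction on every plate.

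Sema5a (chromosome 15, 32244810 to 32696341), a membrane semaphorin with thrombospondin repeats, was rarely read in Zeb2-positive cells, 11 of 147 cells against 388 of 562. Over the plates Sema5a had means of 0 to 7.25 CPM with a median of 0.583 CPM in Zeb2-positive cells and 26.8 to 45.2 CPM with a median of 34.3 CPM in Zeb2-negative cells, so the plates did not overlap (overall 1.91 against 35.8 CPM, log2 ratio -3.66, -5.53 to -2.01 over plates). Epha7 was found in 5 of 147 and 279 of 562 cells. Its plate means were 0 to 3.60 CPM with a median of 0 CPM and 9.48 to 21.7 CPM with a median of 14.3 CPM, again without overlap (log2 ratio -3.23). Epha5, which binds the same ephrin-A ligands, was lower with means of 9.16 against 56.2 CPM (log2 ratio -2.50), and its plates overlapped only at the edge, up to 36.5 CPM in positive and down to 34.1 CPM in negative cells. Ephb1, a receptor for ephrin-B ligands, was found in 6 of 147 against 154 of 562 cells (log2 ratio -2.53, lower on 11 of 11 plates).

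The Slit receptors Robo1 and Robo2 were both lower. Robo1 had a read in 9 of 147 Zeb2-positive and 316 of 562 Zeb2-negative cells, with means of 0.424 and 9.65 CPM (log2 ratio -2.90) and a lower mean in positive cells on all 11 plates. Robo2 stood at 11.6 against 25.3 CPM (log2 ratio -1.06, lower on 10 plates). Of the netrin system, Ntn1 was lower on all 11 plates (0.501 against 6.27 CPM, log2 ratio -2.28) and its receptor Dcc on 10 (2.89 against 7.73 CPM, log2 ratio -1.17). Sema3e, a ligand of Plxnd1, had 0 reads in 147 positive cells, which by the limit of 3 cells allows a share of up to 2.04%. The mean in negative cells was 1.35 CPM, 59.9-fold above a floor of 3 reads over the 147 cells. A cell can hold many reads, so that fold is no lower bound on the difference.

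In the other direction, Nrp1 was found in 132 of 147 Zeb2-positive and 204 of 562 Zeb2-negative cells. Over the plates Nrp1 had means of 25.4 to 54.7 CPM with a median of 39.6 CPM in Zeb2-positive cells and 4.06 to 30.5 CPM with a median of 7.64 CPM in Zeb2-negative cells (log2 ratio 2.30, higher on all 11 plates). Ephb6, already the highest member per kb, had plate means of 84.1 to 169 CPM with a median of 119 CPM in positive and 28.6 to 49.9 CPM with a median of 41.8 CPM in negative cells, without overlap (log2 ratio 1.58). Sema6d, a membrane semaphorin that binds class A plexins, had 64.7 against 20.1 CPM (log2 ratio 1.63) and Ntng1 19.1 against 8.73 CPM (log2 ratio 1.05), both higher on all 11 plates. The neuropilins went in opposite directions, since Nrp2 was lower in positive cells (2.51 against 9.89 CPM, log2 ratio -1.63) on 9 of 11 plates. The depth of the cells was close, with medians of 884326 and 869119 reads, and oligodendrocyte markers summed to a median of 27.4 CPM in positive and 22.9 CPM in negative cells, and microglia markers to a mean of 1.02 and 0.344 CPM. Without the cells that held over 100 CPM of glial, vascular and ependymal markers 18 members were called. Of the 17, Plxnb1 lost its call without plate 48 (-0.61 in place of -1.29), whose cell with 978 CPM of Plxnb1 also held 1906 CPM of those markers, without the cells with such markers (-0.53), without the highest cells (-0.84) and after thinning (-0.50). With plates weighted equally Dcc was at -0.82 and Ntng1 at 0.92. Without plate 48 Dcc was at -0.95 and Slit3 at -0.80, Efna5 was under 2-fold without plate 52 (-0.92) or 57 and after thinning (-0.96), Robo2 without plate 55, 57 or 60 (-0.95) and Ntng1 without plate 55 (0.96), 56 or 64.

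**Figure D3:**
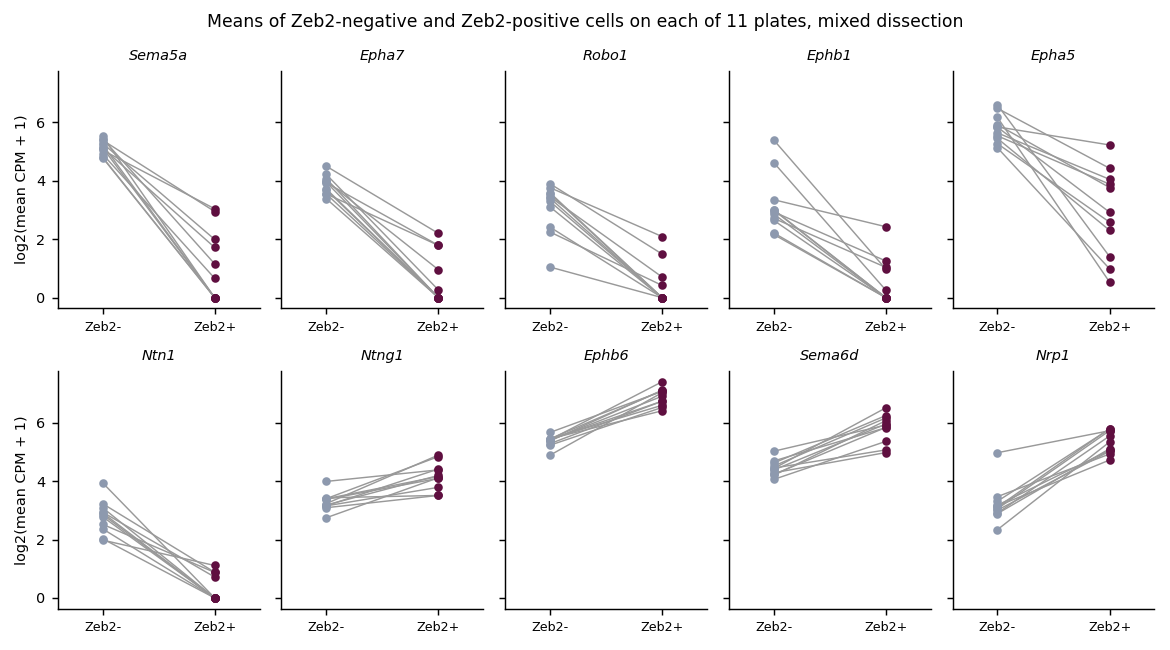
The 10 members called in Zeb2-positive cells with the same direction on all 11 plates of the mixed dissection. Each line joins the mean of Zeb2-negative cells and the mean of Zeb2-positive cells of 1 plate, as log2(mean CPM + 1). Zeb2-positive cells are lower on every plate for Sema5a, Epha7, Robo1, Ephb1, Epha5 and Ntn1 and higher for Ntng1, Ephb6, Sema6d and Nrp1.

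Zeb2 is a repressor known to bind the E-box CACCTG, so these 6 letters, on either strand (CACCTG or CAGGTG), were searched in the 250 bases before each RefSeq start site on GRCm38.p6. Of the 17 called members 15 matched an entry by symbol and Dcc and Ntn1 did not. The letters were in 2 of their 19 windows, in 10 of 77 windows of all members and in 17.2% of all 32851 windows. The windows with a match are shown with it in capitals, for Robo1 (chr16:72662899-72663148, plus strand), which was lower in Zeb2-positive cells, and for the second of the 2 entries of Sema6d (chr2:124653331-124653580, plus strand), which was higher. A match is only a description of these letters.
Robo1: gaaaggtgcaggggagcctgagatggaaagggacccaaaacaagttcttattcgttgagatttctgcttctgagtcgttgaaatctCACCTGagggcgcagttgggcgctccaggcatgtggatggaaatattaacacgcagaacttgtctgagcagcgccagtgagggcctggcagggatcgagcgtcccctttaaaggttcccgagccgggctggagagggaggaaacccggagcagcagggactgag
Sema6d: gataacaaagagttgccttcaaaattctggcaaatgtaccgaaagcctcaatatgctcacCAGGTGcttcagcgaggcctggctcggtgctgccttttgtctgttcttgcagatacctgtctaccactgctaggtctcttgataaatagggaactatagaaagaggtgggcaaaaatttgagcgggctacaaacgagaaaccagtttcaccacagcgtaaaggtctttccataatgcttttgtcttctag
The match began 164 bases before this RefSeq start of Robo1, on the strand of the gene, and 190 bases before that of Sema6d, on the other strand. Both windows lay inside the gene as annotated in GENCODE M21, which runs from 72308306 to 73046095 for Robo1 and from 124089969 to 124667770 for Sema6d.

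In Irx2-positive cells Nrp2 was higher and Plxna4 and Sema3c were lower, with a spread between plates that left no call in one direction throughout. The 154 positive cells were compared with 555 others, and of 52 members that passed the filter 4 were called higher, Nrp2, Sema3e, Ephb1 and Ntng2, against 0.910% of all genes, and 4 lower, Sema3c, Plxna4, Unc5d and Plxnd1, against 1.87%. Members had a median log2 ratio of 0.22 and all genes of 0.024. None of the 8 had the same direction on all 11 plates, where 0.996% of all genes were called and did. Nrp2 had plate means of 2.08 to 40.5 CPM with a median of 20.1 CPM in Irx2-positive and 0.242 to 12.8 CPM with a median of 4.01 CPM in Irx2-negative cells, and was higher in positive cells on 10 plates (log2 ratio 1.94). Ephb1 was found in 75 of 154 against 85 of 555 cells, with means of 12.5 and 5.66 CPM (log2 ratio 1.02, higher on 9 plates).

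The class 3 semaphorins Sema3e and Sema3c went in opposite directions. Sema3e had means of 2.96 against 0.550 CPM (log2 ratio 1.35), a value resting on 12 positive cells with a read, and fell under 2-fold, to 0.98, without the highest cell of each side and to 0.98 without plate 60. Sema3c was lower, with 1.61 against 5.44 CPM (log2 ratio -1.30, lower on 10 plates). Of the plexins, Plxna4 had 4.85 against 13.3 CPM (log2 ratio -1.29, lower on 10 plates) and Plxnd1, the receptor of Sema3e, 0.577 against 2.43 CPM (log2 ratio -1.12). Unc5d had plate means of 1.38 to 32.5 CPM with a median of 8.97 CPM and 5.76 to 36.3 CPM with a median of 20.6 CPM, which overlapped widely (log2 ratio -1.17, lower on 8 plates). Ntng2, of whose exon bases 14.0% overlap other genes, had 2.46 against 0.699 CPM (log2 ratio 1.02). Without the cells that held over 100 CPM of glial, vascular and ependymal markers Plxna4 was at -0.95, and with plates weighted equally Unc5d was at -0.91, Plxnd1 at -0.97, Ephb1 at 0.88 and 5 members were called. Ephb1 was also under 2-fold without plate 50 (0.90), 51, 57, 60, 63 or 64 and, just so, with positive cells from 10 CPM, and Ntng2 without plate 50, 55, 63 or 67 (0.91), after thinning (0.92) and, just so, without the highest cells. Irx2-positive cells were shallower, with a median of 785380 against 910859 reads, and with every cell thinned to 250000 reads 7 members were called. Serotonin neuron markers summed to a median of 19030 CPM in Irx2-positive and 21556 CPM in Irx2-negative cells.

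Grik1, which encodes a kainate receptor subunit, had a read in 165 mixed cells, and the 71 cells in the top 10%, from 24.2 CPM, were compared with the other 638. The top 10% is a range and not a class, since 22 cells lay within 20% of the limit, and 21 of the 71 cells were Zeb2-positive and 31 Irx2-positive. Of 52 members, 6 were called higher, Nrp2, Sema3e, Sema3f, Epha5, Nrp1 and Efna2, against 1.14% of all genes, and 2 lower, Unc5d and Sema3c, against 1.62%. Members had a median log2 ratio of 0.097 and all genes of 0.045. Only Unc5d had the same direction on all 11 plates, which 0.635% of all genes were called with. Taking the top 5% gave 17 called members and the top 20% gave 5, and without plate 50 it was 13. Grik1-high cells had a median of 754615 reads against 893769, and with every cell thinned to 250000 reads 11 members were called. Serotonin neuron markers summed to a median of 17792 CPM in Grik1-high and 21283 CPM in other cells. Plate means of this sum ran from 9595 to 22642 CPM in Grik1-high cells.

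Both neuropilins were higher in Grik1-high cells. Nrp2 had plate means of 0 to 131 CPM with a median of 26.2 CPM against 0 to 10.4 CPM with a median of 4.40 CPM (log2 ratio 2.37, higher on 8 of 11 plates) and Nrp1 of 0.450 to 80.1 CPM with a median of 30.6 CPM against 8.27 to 35.0 CPM with a median of 11.2 CPM (log2 ratio 1.18, higher on 9). The plates overlapped widely for both. Among class 3 semaphorins, Sema3f, which acts through Nrp2, was at 17.4 against 4.70 CPM (log2 ratio 1.69, higher on 10 plates), Sema3e was at 6.49 against 0.470 CPM (log2 ratio 2.35, with a read in 12 of 71 cells) and Sema3c was lower at 1.76 against 4.93 CPM (log2 ratio -1.10). Epha5 had 117 against 38.7 CPM (log2 ratio 1.57), and 0.76 for the top 20%, where Nrp1 was at 1.00, just under 2-fold. Unc5d had plate means of 0 to 15.0 CPM with a median of 5.45 CPM in Grik1-high and 7.38 to 31.6 CPM with a median of 18.1 CPM in other cells (log2 ratio -1.83). Efna2, an ephrin-A, had 6.66 against 2.72 CPM (log2 ratio 1.04), and lost the call without plate 56 (0.79), where 1 cell held 54.7 CPM of it and 513 CPM of glial, vascular and ependymal markers. It was also under 2-fold without the cells with such markers (0.80), without the highest cells (0.93), after thinning (0.92), for the top 20% (0.31) and without plate 52, 57 or 60, and Sema3c was so for the top 5% (-0.98) and without plate 52 (-0.90), 60 or 64.

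Set side by side, cells of these 3 kinds held different mixes of neuropilins and semaphorins. The mean of Nrp1 was 43.4 CPM in Zeb2-positive, 14.2 in Irx2-positive and 31.8 in Grik1-high cells, and that of Nrp2 was 2.51, 21.2 and 33.1 CPM. Epha5 stood at 9.16, 70.8 and 117 CPM, and Sema6d at 64.7, 27.4 and 53.1 CPM. The kinds share cells with each other and with each other's comparison cells, so their order was not tested.

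Within the pDR dissection, cells with and without Slc17a8, which encodes the vesicular glutamate transporter Vglut3, differed most in Slit2, Eph receptors, Sema3f and Ntng1. The 131 positive cells were compared with 159 others on 5 plates. Of the 71 members 50 passed the filter, and 9 of them were called higher, Slit2, Epha3, Sema3f, Ntng1, Epha5, Nrp2, Epha6, Sema3c and Unc5c, against 1.34% of 12876 genes, and 2 lower, Ephb1 and Sema6a, against 1.33%. The median log2 ratio was 0.14 over members and -0.0061 over all genes. Of the 11, 8 had the same direction on all 5 plates, and 2.00% of all genes were called and did. Median depth was 774734 reads in positive and 727211 in negative cells.

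On plates 12, 13, 25, 39 and 40 the mean of Slit2 (chromosome 5, 47983138 to 48307733) was 36.8, 30.3, 58.8, 52.0 and 34.7 CPM in Slc17a8-positive and 8.25, 3.85, 6.80, 6.95 and 1.78 CPM in Slc17a8-negative cells. The plates did not overlap, and the log2 ratio was 2.61, with a read in 107 of 131 against 40 of 159 cells. Epha3, a receptor for ephrin-A ligands, had 3.49, 4.70, 6.51, 4.38 and 2.28 CPM in positive cells and 0 reads in all 159 negative cells, which by the limit of 3 cells allows a share of up to 1.89%. The mean of positive cells was 207-fold above a floor of 3 reads over those 159 cells. A cell can hold many reads, so here too the fold is no lower bound on the difference. Sema3f had 5.23, 8.98, 4.56, 5.15 and 0.843 CPM against 0.164, 0.336, 0.908, 1.39 and 0 CPM (log2 ratio 2.18). Ntng1 had 9.19, 1.93, 6.17, 24.8 and 5.63 CPM against 2.95, 1.41, 0, 0 and 0 CPM (log2 ratio 1.80), with 3 plates at 0 among negative cells.

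Epha5 was high in both kinds of cell and higher in Slc17a8-positive ones, with 76.8, 76.9, 66.9, 172 and 86.5 CPM against 42.3, 26.2, 21.2, 35.1 and 31.3 CPM and no overlap of plates (log2 ratio 1.35). Nrp2 (4.90 against 1.52 CPM) and the netrin receptor Unc5c (11.6 against 4.68 CPM) were higher on all 5 plates. Epha6 was higher on 4 and Sema3c on 3 of them. Ephb1 went the other way, with 3.18, 2.188, 2.06, 0.986 and 1.31 CPM in positive and 7.60, 8.84, 1.93, 2.17 and 22.9 CPM in negative cells (log2 ratio -1.58, lower on 4 plates), and so did Sema6a, a membrane semaphorin, with 21.8 against 47.8 CPM (log2 ratio -1.10, lower on all 5). The calls of Sema3c (without plate 12, 0.57, or 25, and with plates weighted equally, 0.68), Sema6a (without plate 12, -0.94, 25 or 40) and Unc5c (without plate 13 or 25, 0.94, and with positive cells from 5 reads, 0.83, or 10 CPM, 0.86) did not hold throughout.

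The split of the same 290 cells by Gad1 or Gad2, the enzymes that make GABA, gave many of these members in the other direction. The 183 Gad-positive cells were compared with 107 others, and 136 of the 183 had no read of Slc17a8 while 84 of the 107 had one, so the comparisons share their cells and are no independent evidence of each other. Of the 50 members past the filter 8 were called lower in Gad-positive cells, Slit2, Ntng1, Sema3f, Sema5a, Epha3, Epha6, Unc5c and Nrp2, against 1.33% of 12875 genes, and 3 higher, Ephb1, Robo1 and Unc5d, against 2.17%. Over members the median log2 ratio was -0.12, and over all genes 0.0042. All but Robo1 had the same direction on the 5 plates, 10 of 11, and 2.71% of all genes were called and did.

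Slit2 had 7.33, 4.41, 14.3, 11.9 and 5.35 CPM in Gad-positive and 45.7, 33.7, 65.7, 41.7 and 41.6 CPM in Gad-negative cells, without overlap (log2 ratio -2.42). Sema5a had 14.1, 17.6, 24.1, 15.5 and 18.7 CPM against 42.0, 80.0, 36.7, 81.6 and 67.3 CPM, also without overlap (log2 ratio -1.73), and here the level was highest in the 23 cells with neither marker, 152 CPM against 34.4 CPM with Slc17a8 alone and 14.7 CPM with Gad alone. Ephb1 had 8.01, 8.34, 3.45, 2.31 and 18.7 CPM in Gad-positive and 1.28, 1.99, 0, 0.904 and 0 CPM in Gad-negative cells (log2 ratio 2.22). Unc5d had 58.1, 71.2, 60.6, 109.6 and 110.4 CPM against 35.6, 34.2, 24.5, 51.2 and 32.7 CPM, without overlap (log2 ratio 1.08, 0.95 without plate 40 and just under 2-fold without the highest cells). Robo1 had 20.8, 20.9, 31.6, 23.3 and 40.6 CPM against 7.57, 7.36, 8.72, 25.9 and 9.51 CPM (log2 ratio 1.25), and plate 39 was the one on which Gad-positive cells were not higher.

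The 4 kinds of pDR cell defined by both markers were 84 cells with Slc17a8 alone, 47 with both, 136 with Gad alone and 23 with neither. In that order the mean of Slit2 was 50.7, 21.0, 2.85 and 22.8 CPM, so cells with both markers lay between those with 1 marker. Ntng1 was at 10.5, 1.90, 1.03 and 3.79 CPM, Sema3f at 7.18, 2.22, 0.151 and 1.99 CPM and Epha3 at 5.17, 2.598, 0 and 0 CPM. For Epha5, at 87.3, 79.7, 27.6 and 61.8 CPM, cells with both markers were near those with Slc17a8 alone. For Robo1, at 10.1, 23.5, 26.0 and 9.75 CPM, they were instead near those with Gad alone. Sema6a was at 19.7, 25.6, 44.2 and 69.2 CPM and Unc5d at 40.5, 48.3, 83.3 and 13.4 CPM, and cells with neither marker held the most of the first and the least of the second. These means over the cells of 5 plates are a description.

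**Figure D4:**
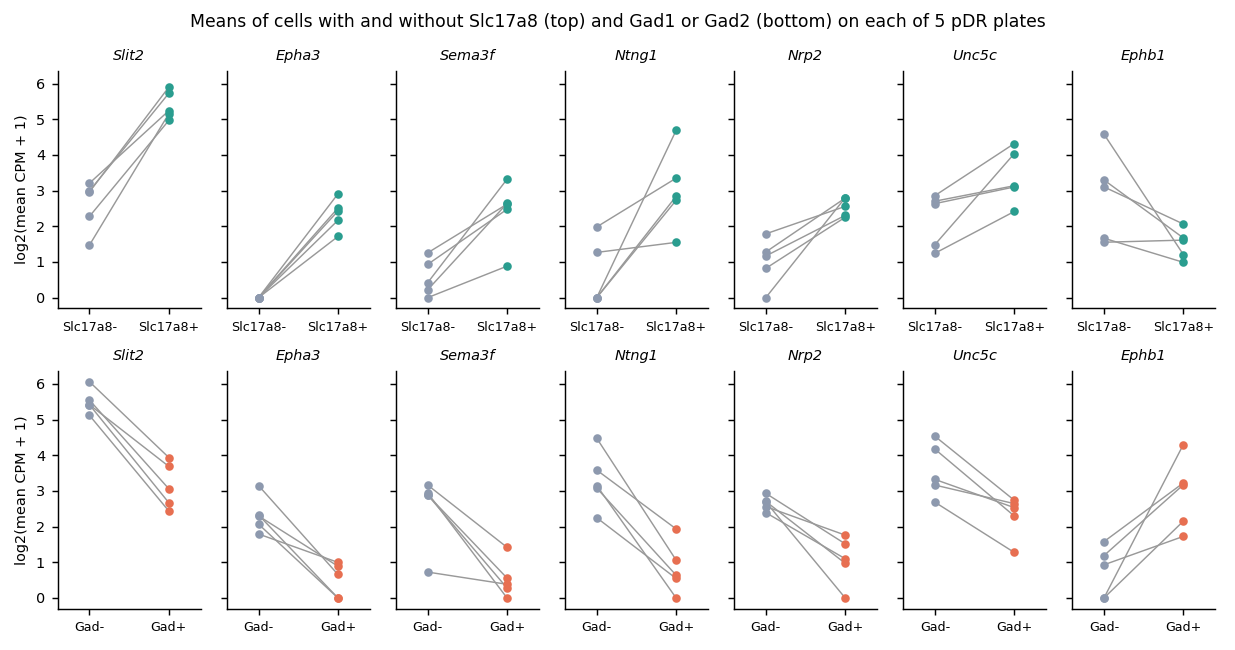
Means on each of the 5 pDR plates, as log2(mean CPM + 1), of cells without and with Slc17a8 (top) and without and with Gad1 or Gad2 (bottom), each line 1 plate. Slit2, Epha3, Sema3f, Ntng1, Nrp2 and Unc5c are higher with Slc17a8 and lower with Gad on every plate, and Ephb1 is higher with Gad on every plate and lower with Slc17a8 on 4 of 5.

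In the mixed dissection the same markers separated few members. Of 52 members, Sema3c was called higher in the 518 Slc17a8-positive cells than in the 191 others, against 0.541% of all genes, and Plxnb1, Ephb1 and Sema3e were called lower, against 0.965%. None had the same direction on all 11 plates, which 0.243% of all genes were called with, and the median log2 ratio was 0.019 over members and -0.015 over all genes. Sema3c had plate means of 0 to 11.7 CPM with a median of 5.13 CPM in positive and 0 to 5.40 CPM with a median of 0.687 CPM in negative cells (log2 ratio 1.41, higher on 9 plates). Plxnb1 (1.64 against 8.34 CPM, log2 ratio -1.82) and Ephb1 (4.83 against 13.5 CPM, log2 ratio -1.31) rested on 1 cell of plate 48, which held 978 CPM of Plxnb1, 911 CPM of Ephb1 and 754 CPM of Plxna4 together with 1906 CPM of glial, vascular and ependymal markers. Without the highest cell of each side the log2 ratios were -0.73 and -0.79, that of Sema3e was -0.90 (-0.89 without plate 60), and 1 member was called. Without plate 48 it was 2 members, and with every cell thinned to 250000 reads also 2, where positive cells had a median of 897954 reads and negative cells 800645.

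Of the 164 Gad-positive against 545 Gad-negative mixed cells, 2 of 52 members were called higher, Sema3e and Robo1, against 0.965% of all genes, and 1 lower, Ntn1, against 0.306%. The median log2 ratio was -0.013 over members and 0.0100 over all genes, and none had the same direction on every plate, which 0.173% of all genes were called with. Ntn1 was at 2.01 against 6.00 CPM (log2 ratio -1.22, lower on 10 plates). Robo1 was at 13.9 against 5.89 CPM (log2 ratio 1.11, higher on 9 plates), with 0.95 without the highest cell of each side, 0.93 after thinning and 0.95 without plate 63. Sema3e was at 2.96 against 0.505 CPM (log2 ratio 1.397) with a read in 16 of 164 cells. Slit2, called in both pDR splits and given here for that reason, had log2 ratios of 0.89 with Slc17a8 and -0.61 with Gad in the mixed dissection. Whether the marker contrasts differ between dissections was not tested.

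**Figure D5:**
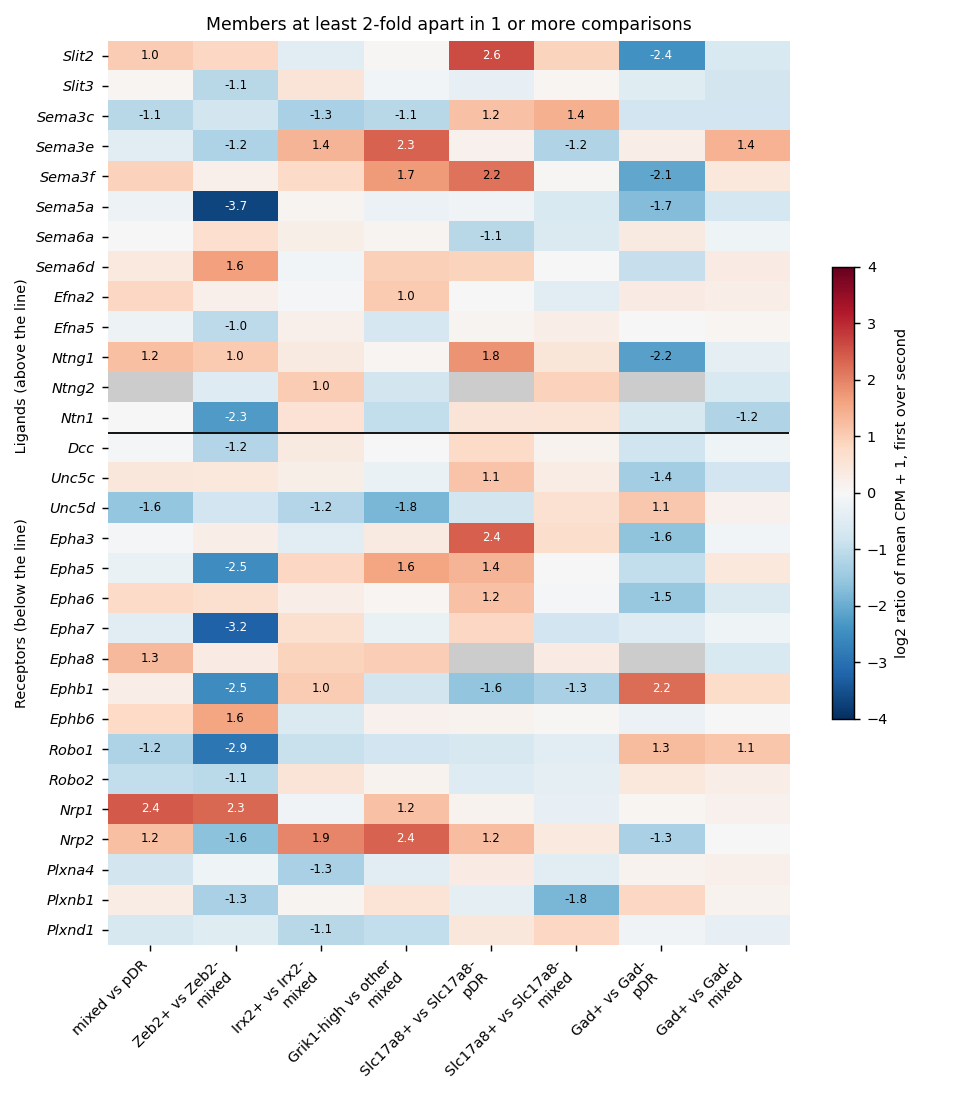
Log2 ratio of mean CPM + 1, first kind of cell over second, for the 30 members called in at least 1 of the 8 comparisons. Ligands lie above the line and receptors below it, red is higher and blue lower in the first kind, numbers mark calls, and grey marks values under the filter. Nrp2 was called in 6 comparisons, and Sema3c, Sema3e and Ephb1 in 5 each.

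Across the 8 comparisons 30 of the 71 members were called at least once, 41 were not, and 19 of these had too few reads to pass the filter in any. Of the 52 that passed in at least 1 comparison the 30 are 57.7%, and of the 13304 genes that did 14.0% were called at least once. The share of cells with a read lay in the direction of the mean for all 70 called values, also after thinning each cell to 250000 reads. Share and mean come from the same reads, so the share is no separate evidence. Nrp2 was called 6 times, Sema3c, Sema3e and Ephb1 5 times, and Ntng1, Robo1 and Unc5d 4 times. All calls of Sema3e came from the mixed dissection, where it had a read in 38 of 709 cells. Its mean there was 1.07 CPM, just past the filter. The call of Ephb1 for Slc17a8 in the mixed dissection rested on 1 cell of plate 48. The number of calls is therefore no ranking of the members. The most abundant members per kb other than Ephb6 and Efna5, namely Sema4a, Sema4f, Sema4d and Efnb3, were called in none. Many comparisons share cells, and these counts are not independent.

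Reads of ligands and receptors of a pair were counted in the same cell and set beside the product of their separate shares. Where a separate share is near 100%, the share with both can hardly differ from the product. In pDR cells, where a Sema6 ligand was read in 100%, it could not differ at all. Such values do not show whether ligand and receptor are read independently. A read of a Sema6 ligand and of a class A plexin occurred together in 98.3% (96.0 to 99.4%) of pDR and 98.0% (96.7 to 98.9%) of mixed cells, and of an ephrin-A and an EphA receptor in 88.6% (84.4 to 92.0%) and 90.8% (88.5 to 92.9%). For ephrin-Bs with EphB receptors the shares were 71.7% (66.2 to 76.8%) and 79.8% (76.7 to 82.7%). Slits occurred with Robo1 or Robo2 in 84.5% (79.8 to 88.5%) of pDR and 78.6% (75.4 to 81.5%) of mixed cells, and Ntn1, Ntn3 or Ntn4 with Dcc or an Unc5 in 80.3% (75.3 to 84.8%) and 80.0% (76.8 to 82.9%). In the order given the products of the separate shares of ligand and receptor were, for pDR and mixed cells, 98.3% and 97.9%, 87.2% and 90.5%, 69.8% and 79.8%, 84.3% and 79.1%, and 79.4% and 79.0%. Class 3 semaphorins with a neuropilin were the rarest pair, in 19.0% (14.6 to 24.0%) of pDR and 40.1% (36.4 to 43.8%) of mixed cells. The product was 15.5% and 39.0% for this last pair, in which a neuropilin was read in 30% of pDR and 63.9% of mixed cells. In pDR cells 32.8% held a read of the ligand alone, 11.0% of a neuropilin alone and 37.2% of neither. Whether this pair departs from its product was not tested.

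Among the 26 members with a mean over 10 CPM, 325 pairs were correlated as ln(CPM + 1) over the 999 cells, which share libraries and depth, and none passed 0.4 in size. The strongest were Slit2 with Robo1, a ligand and its receptor, at r = -0.38 (-0.29 with plate means subtracted), Epha7 with Epha5 at 0.34 (0.30 with plate means subtracted) and Robo1 with Nrp1 at -0.33 (-0.19 with plate means subtracted). Next in size was Unc5d with Sema5a at -0.32. With plate means subtracted it was at -0.35, larger in size than any of the pairs before it. These values over cells are a description. Of the 8087 genes with a mean over 10 CPM, the most alike to Ntng1 were Nr2f2 (r = 0.49, and 0.40 with plate means subtracted), a nuclear receptor, and Stxbp6 (r = 0.47, and 0.40 with plate means subtracted). For Nrp2 they were Tmeff2 (r = 0.43, and 0.41 with plate means subtracted) and the homeobox gene Pbx3 (r = 0.35, and 0.37 with plate means subtracted), and for Robo1 Fam19a2 (r = 0.53, and 0.43 with plate means subtracted) and Gucy1a1 (r = 0.50, and 0.34 with plate means subtracted), a subunit of guanylate cyclase. For Dcc they were the member Epha5 (r = 0.28, and 0.27 with plate means subtracted) and Ntm (r = 0.25, and 0.24 with plate means subtracted), and for Unc5c Cbln2 (r = 0.32, and 0.30 with plate means subtracted) and Spock3 (r = 0.31, and 0.30 with plate means subtracted).

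Other genes of guidance pathways were counted from a list of 20 extracellular and 42 cytoplasmic proteins, of which 17 and 38 to 40 passed the filter. Between dissections 1 of 17 extracellular and 2 of 39 cytoplasmic genes were called, against 1.75% of all genes higher and 2.88% lower, Ngef (6.39 against 1.39 CPM, log2 ratio 1.63), an exchange factor that acts after Eph receptors, Mical1 (1.92 against 0.319 CPM, log2 ratio 1.15), an oxidase that acts after plexins, and Flrt2 (5.37 against 17.4 CPM, log2 ratio -1.53), a ligand of Unc5d. In Zeb2-positive cells 3 of 17 and 4 of 40 were called, against 2.72% of all genes higher and 5.66% lower, led by Chn2 (16.1 against 128 CPM, log2 ratio -2.92), a regulator of Rac, Mical1 (5.93 against 0.870 CPM, log2 ratio 1.89) and Mical2 (2.22 against 10.4 CPM, log2 ratio -1.82). In Irx2-positive cells 1 of 17 and 0 of 40 were called, against 0.910% and 1.87%, Rgmb (167 against 74.1 CPM, log2 ratio 1.16), a ligand of neogenin, and the next in size were Mical2 (6.32 against 9.39 CPM, log2 ratio -0.50) and Rnd1 (35.7 against 24.9 CPM, log2 ratio 0.50). In Grik1-high cells 1 of 17 and 2 of 40 were called, against 1.14% and 1.62%, Vav2 (1.15 against 3.75 CPM, log2 ratio -1.14), Mical2 (3.71 against 9.28 CPM, log2 ratio -1.13) and Rgmb (173 against 85.5 CPM, log2 ratio 1.01). All 3 were under 2-fold for the top 20%, Rgmb also without its highest cells (0.97) and without plate 51, 52, 56, 63 or 64, and Mical1 was so between dissections without plate 55 (0.93).

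With Slc17a8 in the pDR, 0 of 17 and 1 of 38 were called, against 1.34% of all genes higher and 1.33% lower, Mical2 (10.3 against 3.57 CPM, log2 ratio 1.31), before Flrt2 (11.2 against 22.4 CPM, log2 ratio -0.94) and Lrrc4 (2.72 against 1.23 CPM, log2 ratio 0.74), and with Gad 0 and 1, against 2.17% and 1.33%, Mical2 (3.72 against 11.6 CPM, log2 ratio -1.42), before Flrt2 (21.1 against 11.0 CPM, log2 ratio 0.87) and Rgmb (74.0 against 125 CPM, log2 ratio -0.75). In the mixed dissection 0 of 17 and 2 of 40 were called with Slc17a8, against 0.541% and 0.965%, Dock1 (0.356 against 3.11 CPM, log2 ratio -1.60) and Vav2 (2.33 against 6.63 CPM, log2 ratio -1.20), before Mical2 (10.0 against 5.23 CPM, log2 ratio 0.82), and 0 and 1 with Gad, against 0.965% and 0.306%, Dock1 (3.32 against 0.429 CPM, log2 ratio 1.59), before Flrt2 (9.22 against 4.21 CPM, log2 ratio 0.97) and Mical2 (4.99 against 9.84 CPM, log2 ratio -0.86). Dock1, a Rac exchange factor, lost both calls without its highest cells (-0.49 and 0.26) and without plate 55. Lrrc4c, the partner of Ntng1, was called lower in Zeb2-positive cells (14.2 against 34.3 CPM), in which Ntng1 was higher, and was named after its value was seen.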

How the data were processed

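The table held 999 cells of the 1536 labelled, and the other 537 were not analysed here. Per the labels and the study's methods, cells were sorted by tdTomato and made into Smart-seq2 libraries, which carry no molecular identifiers. The authors split reads with bcl2fastq 2.19.0.316, aligned them with STAR 2.6.1a to mm10, counted them per gene without strand with HTSeq 0.11.2, removed Y-linked genes and deposited CPM, counts scaled to 1000000 in each cell. Reads of overlapping and antisense genes cannot be told apart in such counts. All values were whole multiples of 1 read within 0.001, which gave each cell's depth, and all 999 cells passed the study's minimums of 300 genes and 50000 reads.

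From the CPM values, Python 3.11.15 with NumPy 2.4.6, pandas 2.3.3 and SciPy 1.17.1 computed mean levels, shares of cells with at least 1 read and log2 ratios of mean CPM + 1. Ratios were taken over all genes with a mean of at least 1 CPM over the cells compared, leaving out the gene that defined the split, and called from 2-fold. Within a plate they were taken where each kind had at least 3 cells. The ratio step was tested on simulated data. Labels name no animal, so each dissection is 1 sample, and no p-value was computed. Plates are those the labels name and may share animals. The members and lists were chosen with earlier results of these data known. Named genes were the 6 largest called ratios of each comparison, the 6 highest members per kilobase, the 6 with the widest spread over plates, members with 0 reads, the 2 genes most alike to each of Ntng1, Nrp2, Robo1, Dcc and Unc5c, and the 3 largest ratios of related genes. Other called members were named after their values were seen. Alternatives were other pseudocounts, filters, definitions of positive and Grik1-high cells, plate weights, cells or plates left out, and thinning. Figures were drawn with matplotlib 3.10.9.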

Additional observations from a re-analysis of the deposited data

Results flagged for a closer look

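The 36 members with a mean of at least 5 CPM in the pDR dissection were examined for a plate apart. In 2 of them the gap to the nearest plate was a large part of the range of the 5 plates. The mean of Plxna2, a class A plexin, was 28.1 CPM on plate 12, the lowest, against 31.7 CPM on the nearest plate, a gap of 0.810 of the whole range. That range was small, since all 5 plates of Plxna2 lay from 28.1 to 32.6 CPM. The mean of Robo2 was 68.2 CPM on plate 39, the highest, against 45.4 CPM on the nearest, a gap of 0.805. The limit was 0.71, which chance passes in about 1 of 20 groups, so 2 of 36 is near that rate. No member had all plates of the pDR dissection in one direction and all plates of the mixed dissection in the other for Slc17a8 or Gad.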

How the results depend on the processing

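No p-value was computed, so a call is a size of 2-fold. No paired analysis was possible because no result came from a test and no plate held both dissections, while for the other 7 comparisons the values within plates stand in the report. Counts of called members changed with the pseudocount, the filter and, for Grik1, the limit for high cells. With a pseudocount of 10 CPM in place of 1 they were 2 of 8 between dissections, 6 of 17 for Zeb2, 1 of 8 for Irx2, 3 of 8 for Grik1, 2 of 11 for Slc17a8 and 2 of 11 for Gad in the pDR, and 0 of 4 and 0 of 3 in the mixed dissection. With a filter of 10 CPM they were 4, 9, 2, 3, 4, 4, 0 and 0 in that order. With a pseudocount of 0.1 CPM they were 7 for Slc17a8 and 6 for Gad in the mixed dissection. Weighting plates equally gave 5 for Irx2. Taking the top 5% or 20% of cells for Grik1 gave 17 and 5. For Slc17a8 in the mixed dissection, leaving out each gene's highest cells gave 1 and thinning to 250000 reads gave 2. Leaving out 1 plate at a time gave 7 to 9 between dissections, 14 to 18 for Zeb2, 6 to 9 for Irx2, 6 to 13 for Grik1 (13 without plate 50), 8 to 11 for Slc17a8 and 11 to 14 for Gad in the pDR, and 2 to 5 for both in the mixed dissection (for Slc17a8 2 without plate 48 and 5 without plate 52, for Gad 5 without plate 48). The median number of members read per cell went from 28 to 25 with thinning in both dissections. The causes were not tested. Of 1362 values of single called members under these alternatives none changed direction and 141 were no longer past 2-fold, 54 of them at a pseudocount of 10 CPM. The 70 values at a pseudocount of 0.1 CPM and the 70 at 10 CPM could not change direction. The 70 with no filter and the 70 with a filter of 10 CPM could not change at all. The 678 with 1 plate left out share most of their cells with the main values, so a change of direction was unlikely in advance. Members near 1 CPM rest on few reads, and a zero in 1 cell limits only that library.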
